A study of Mus musculus with 24 samples.

Results

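The 33 genes described here are mouse genes of cholesterol and fatty acid synthesis. They are 18 enzymes of the sterol pathway (Acat2, Hmgcs1, Mvk, Pmvk, Mvd, Idi1, Fdps, Fdft1, Sqle, Lss, Cyp51, Tm7sf2, Msmo1, Nsdhl, Hsd17b7, Ebp, Sc5d and Dhcr7), 10 enzymes that make or modify fatty acids (Acly, Acss2, Acaca, Fasn, Scd1, Scd2, Elovl5, Elovl6, Fads1 and Fads2), and 5 genes of regulation and sterol transfer (Srebf1, Srebf2, Scap, Insig1 and Stard4). They were chosen by symbol from the 23478 gene symbols of the count table. All 33 were found, 32 under the listed symbol and Msmo1 under its older symbol Sc4mol. All 33 also passed the filter on low counts, which kept 12625 genes for testing.

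RNA was sequenced from 4T1-T cells, a mouse breast cancer line, after the cells had been recovered from lung metastases or from primary tumors. Cells of the hairpin groups shAsns-1 and shAsns-2 carried a short hairpin RNA against Asns, and those of the control group carried shRenilla. Each of the 6 combinations of site and hairpin has 4 libraries, with the letters A to D. All cells were selected with 6TG and kept in DMEM to which non-essential amino acids were added, so the levels are those of cultured cells that came from each site and not of the tissues. All groups share the line, the selection and the culture, and the labels do not tell whether the 4 libraries of a group came from separate mice or cultures. The p-values below therefore measure the spread between these libraries, which may be technical.

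Cholesterol is built from acetyl-CoA through mevalonate, isoprenoid diphosphates, squalene and lanosterol, and fatty acids are built from the same precursor, then lengthened by elongases and given double bonds by desaturases. The genes of both branches are targets of the SREBP transcription factors, which Srebf1 and Srebf2 encode. SREBP precursors are held in the endoplasmic reticulum with the escort protein encoded by Scap, and the protein encoded by Insig1 keeps that complex there when sterols are plentiful. When sterols are scarce the complex moves to the Golgi, where the active factor is cut free. SREBP sites in promoters are often found next to sites for NF-Y, which binds CCAAT, and for Sp1, which binds GC boxes such as GGGCGG.

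The libraries held 8480908 to 38049196 counts, the fewest in tumor shAsns-2 A and the most in tumor shAsns-2 B. Asns, the target of the hairpins, had 152 to 185 CPM (counts-per-million, after scaling of the libraries) in tumor shAsns-1, 26.2 to 48.3 CPM in tumor shAsns-2 and 61.7 to 100.2 CPM in tumor shRenilla. In lung cells it had 176.5 to 219 CPM with shAsns-1, 35.8 to 51.3 CPM with shAsns-2 and 53.05 to 70.2 CPM with shRenilla. Asns was thus higher in the libraries labelled shAsns-1 than in the controls at either site, which goes against a knockdown. The reason for the higher Asns was not tested. A hairpin that did not lower its target, an exchange of labels and other reasons cannot be told apart here. Every direction below is therefore one between libraries as labelled. Of the epithelial marker genes, Krt8 ran from 138 to 286 CPM and Epcam from 8.27 to 134 CPM, and Krt5 was at 0 in all 24 libraries. Markers of other cell types were low: the summed level of 7 adipocyte genes reached at most 1.10 CPM, that of 5 endothelial genes 1.46 CPM and that of 9 macrophage and leukocyte genes 27.6 CPM, most of it Cd14. Of the fibroblast genes Pdgfra reached 48.1 CPM while Thy1 was at 0 in 15 libraries. Dcn reached 8.61 CPM, and Col1a2 and Col3a1 each reached 8.53 CPM. Of the alveolar type 2 genes Lamp3 reached 63.3 CPM while Sftpc was at 0 in 20 libraries. Lung shRenilla B stood apart from the other lung shRenilla libraries for 8 of the 33 genes. Over genes past a count minimum of 20, its chi-square per degree of freedom against those libraries was 144 to 172. Those libraries were 5.99 to 10.4 apart by the same measure. Lung shAsns-2 D lay 97.9 to 116 from its group, whose other libraries were 6.21 to 18.1 apart. It held the lowest of all 24 values for 6 of the 33 genes, as did lung shAsns-1 C and lung shRenilla B. By the same chi-square, tumor shAsns-1 libraries lay 12.3 to 29.4 from each other. They lay 17.8 to 127 from lung shAsns-2, 36.4 to 74.7 from lung shAsns-1 and 40.0 to 180 from lung shRenilla. From tumor shAsns-2 they lay 47.2 to 140 and from tumor shRenilla 77.3 to 151. Whether the site label of tumor shAsns-1 holds was not tested. Counts of calls without the libraries far from their group are given beside the comparisons they enter.

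Promoters of 5 of the genes are printed first, chosen by how far their levels ranged or by a motif. Cyp51 and Msmo1 were the sterol enzymes whose levels ranged most widely over the 24 libraries, Insig1 was the most variable of the regulators, Hmgcs1 holds the classical sterol regulatory element, and Acat2 ranged least of all 33. Each sequence is taken from RefSeq for the build GRCm38.p6, runs 5′ to 3′ on the strand of the gene, and covers 250 bases before the transcription start and 50 after it. Capitals mark CCAAT on either strand, read as ATTGG on the other, and TCACNCCAC.
Cyp51 (chr5:4104648-4104947, minus strand): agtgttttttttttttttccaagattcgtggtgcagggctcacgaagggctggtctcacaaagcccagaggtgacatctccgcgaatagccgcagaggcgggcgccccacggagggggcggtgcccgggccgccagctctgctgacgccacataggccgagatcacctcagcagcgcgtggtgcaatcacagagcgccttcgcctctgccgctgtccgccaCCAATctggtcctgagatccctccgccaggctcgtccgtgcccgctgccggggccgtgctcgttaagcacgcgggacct
Msmo1 (chr8:64733529-64733828, minus strand): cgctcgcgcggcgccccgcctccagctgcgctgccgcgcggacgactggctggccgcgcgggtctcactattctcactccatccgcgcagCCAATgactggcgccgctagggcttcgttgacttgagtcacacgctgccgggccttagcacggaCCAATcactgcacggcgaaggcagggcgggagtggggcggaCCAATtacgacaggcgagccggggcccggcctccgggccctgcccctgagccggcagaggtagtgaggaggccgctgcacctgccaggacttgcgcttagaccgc
Insig1 (chr5:28071162-28071461, plus strand): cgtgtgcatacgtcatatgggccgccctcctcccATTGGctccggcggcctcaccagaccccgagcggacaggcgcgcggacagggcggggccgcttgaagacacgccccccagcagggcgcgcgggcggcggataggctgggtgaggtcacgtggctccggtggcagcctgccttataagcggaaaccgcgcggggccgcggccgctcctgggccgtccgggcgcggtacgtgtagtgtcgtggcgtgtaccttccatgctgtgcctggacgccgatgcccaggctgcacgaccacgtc
Hmgcs1 (chr13:119690101-119690400, plus strand): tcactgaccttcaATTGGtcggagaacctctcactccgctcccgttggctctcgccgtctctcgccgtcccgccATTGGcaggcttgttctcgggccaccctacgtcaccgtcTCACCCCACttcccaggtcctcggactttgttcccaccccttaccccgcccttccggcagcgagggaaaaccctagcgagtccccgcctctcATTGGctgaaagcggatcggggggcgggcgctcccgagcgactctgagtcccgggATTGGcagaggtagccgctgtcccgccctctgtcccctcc
Acat2 (chr17:12960676-12960975, minus strand): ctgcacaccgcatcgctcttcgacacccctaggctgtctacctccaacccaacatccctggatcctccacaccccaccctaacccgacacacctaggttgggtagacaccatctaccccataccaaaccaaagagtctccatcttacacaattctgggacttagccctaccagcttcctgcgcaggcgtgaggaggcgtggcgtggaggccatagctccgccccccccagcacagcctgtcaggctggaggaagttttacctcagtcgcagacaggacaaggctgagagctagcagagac

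In the Cyp51 promoter CCAAT lies 29 bases before the start, and the Msmo1 promoter has 3 matches, at 160, 96 and 55 bases before it. The Insig1 promoter has 1 match, and the Hmgcs1 promoter has 4, with TCACCCCAC beginning 137 bases before the start. The Acat2 window held none of the marked letters. The table of promoters had an entry for 26 of the 33 genes, with 32 promoters in all. CCAAT on either strand was found in 22 of these 32 promoters (68.8%), against 38.1% of 11831 promoters of tested genes and 37.4% of all 32851 promoters of the same length. GGGCGG on either strand was found in 75% of the 32, against 61.9% of promoters of tested genes and 35.7% of all. The exact binomial 95% interval of that share, 56.6 to 88.5%, holds the share of tested genes, and in the 150 bases nearest the start the direction turns, with 46.9% of the 32 against 52.6% of promoters of tested genes. CCAAT was found there in 53.1% of the 32, against 27% of promoters of tested genes. TCACNCCAC on either strand was found in 1 of the 32, that of Hmgcs1, against 1.06% of promoters of tested genes and 1.24% of all. TCACGTGA, a palindromic form of the E-box, was found in 0 of the 32, against 1.83% of promoters of tested genes and 0.974% of all. The 4 motifs do not contain each other, and a match describes the letters and not a bound site.

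In levels per kilobase of exon, Msmo1, which removes methyl groups from sterol intermediates, was the most abundant of the 33 with a mean over the 24 libraries of 131 CPM per kb. The desaturase gene Scd2 followed with 61.0 CPM per kb and the squalene epoxidase gene Sqle with 53.2 CPM per kb. The desaturase gene Fads2 with 0.364 CPM per kb and the sterol reductase gene Tm7sf2 with 0.737 CPM per kb were the least abundant. The genes also differed in how far their CPM varied. The highest library exceeded the lowest 11.2-fold for Fads2, 8.68-fold for Cyp51, 8.35-fold for Msmo1, 7.06-fold for Insig1, 6.74-fold for Scd2 and 6.67-fold for Idi1. It exceeded it 1.70-fold for Acly, which makes cytosolic acetyl-CoA from citrate, and 1.435-fold for Acat2, which joins acetyl-CoA units at the head of the sterol pathway. The highest value lay in a tumor shAsns-2 library for 29 of the 33 genes, 17 of them in library B and 10 in library D. The lowest value lay in a lung library for 30 of the 33.

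**Figure D1:**
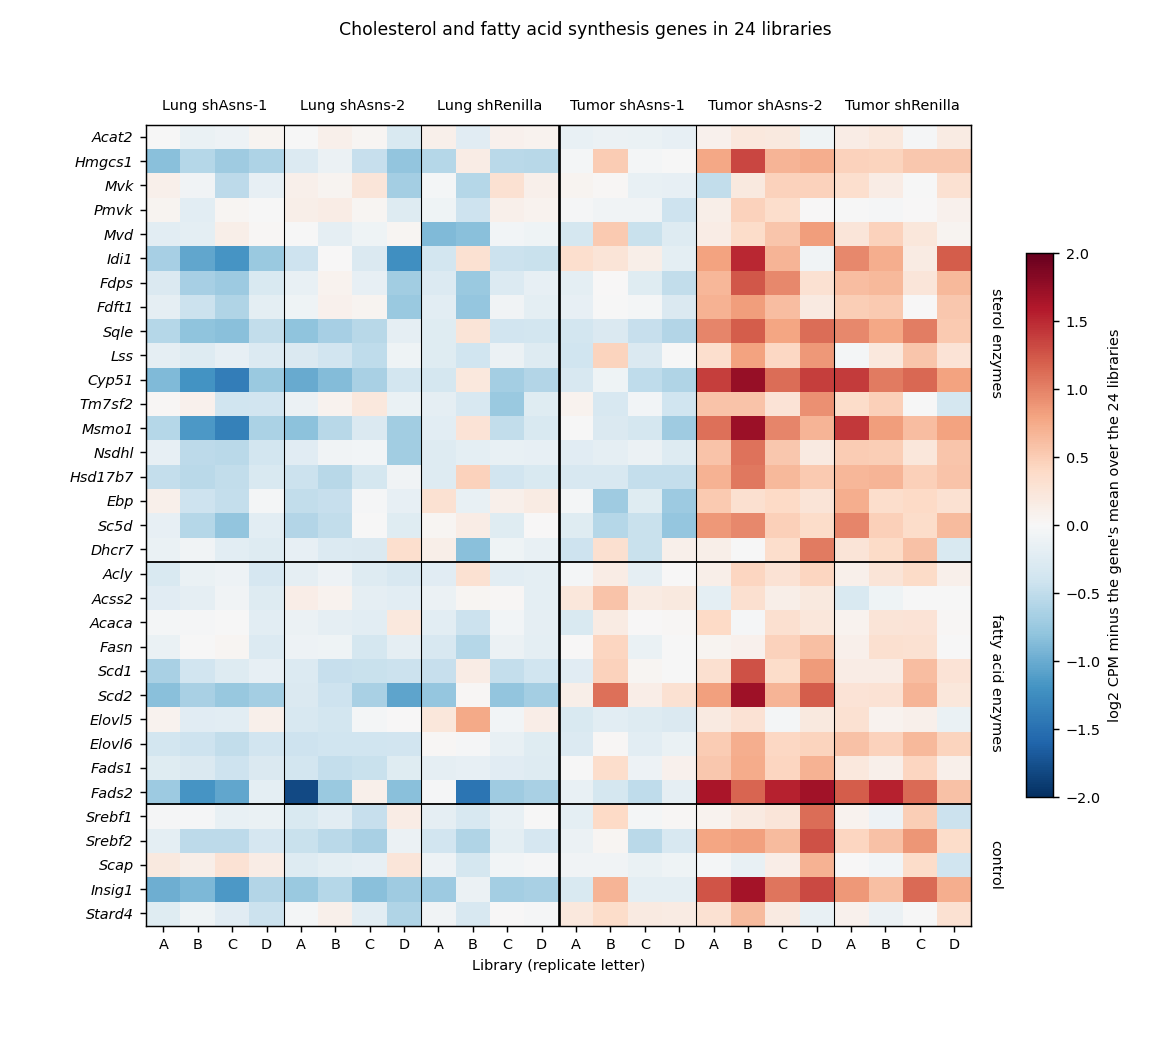
Heat map of the 33 genes (rows, by group of genes) in the 24 libraries (columns, lung groups left of tumor groups), as log2 CPM minus the mean of the gene over all libraries. Tumor shAsns-2 and tumor shRenilla libraries are above the mean for most sterol enzymes, and tumor shAsns-1 libraries lie nearer to the lung libraries.

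The 18 sterol enzymes together took 0.0709 to 0.0899% of all counts in lung shAsns-1 libraries, 0.08405 to 0.0950% in lung shAsns-2 and 0.0942 to 0.110% in lung shRenilla. In tumor cells they took 0.0838 to 0.108% with shAsns-1, 0.182 to 0.258% with shAsns-2 and 0.167 to 0.200% with shRenilla. Tumor shAsns-1 libraries therefore lay below both other tumor groups with no overlap, and their range overlapped those of the lung groups. The 10 fatty acid enzymes took 0.07495 to 0.0791% in lung shAsns-1, 0.0724 to 0.0804% in lung shAsns-2 and 0.0772 to 0.0977% in lung shRenilla. In tumor cells they took 0.0858 to 0.136% with shAsns-1, 0.128 to 0.1785% with shAsns-2 and 0.102 to 0.137% with shRenilla. Here the 3 tumor groups overlapped, and tumor shAsns-2 and tumor shRenilla lay above all lung groups.

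**Figure D2:**
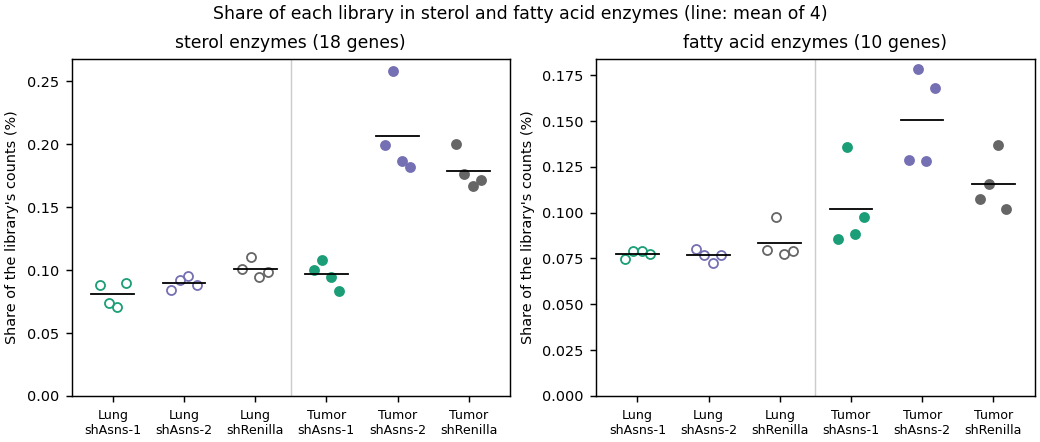
Percent of the counts of each library that fell on the 18 sterol enzymes and on the 10 fatty acid enzymes; each point is 1 library and each line the mean of 4. The mean share of the sterol enzymes is 0.0967% in tumor shAsns-1, 0.2065% in tumor shAsns-2 and 0.179% in tumor shRenilla.

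In cells from primary tumors, sterol enzymes fell in libraries labelled shAsns-1 relative to shRenilla, with Cyp51 at 0.358 times, Msmo1 at 0.416 times and Sqle at 0.419 times the control level. Of the 33 genes 16 were called lower and 1 higher at an adjusted p under 0.05, where 33.9% of all 12625 tested genes were called (16.2% higher and 17.7% lower). The median log2 fold change was -0.34 over the 33 genes and -0.015 over all tested genes, and 29 of the 33 values were negative. Of the 18 sterol enzymes 11 were called lower and 0 higher. All libraries are bulk samples, in which fewer cells of a type and less RNA per cell cannot be told apart.

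Cyp51, the lanosterol demethylase, had 53.6, 63.2, 47.1 and 44.25 CPM in tumor shAsns-1 libraries A to D, against 176, 138, 149 and 118 CPM in tumor shRenilla libraries. The log2 fold change was -1.48 ± 0.19 (SE, adjusted p = 9.45e-07). All 4 shAsns-1 libraries lay below all 4 controls, for which the exact two-sided permutation p over 35 splits is 0.0286, the smallest that 4 against 4 can give. The same held for every other gene called lower in this comparison except Idi1 and Insig1. The genes named were picked by their calls or p-values on these same libraries, here and below, so a separation adds no support of its own. How many of all tested genes separate in this way was not counted, here or in the comparisons below. Msmo1 had 226, 185, 177 and 138 CPM in tumor shAsns-1, against 601, 404, 346.5 and 395 CPM in tumor shRenilla (log2 fold change -1.27 ± 0.22, adjusted p = 7e-05). Sqle, which oxidises squalene, had 101, 106, 94.3 and 86.2 CPM in tumor shAsns-1, against 251.2, 221, 265 and 186 CPM in tumor shRenilla (log2 fold change -1.25 ± 0.15, adjusted p = 4.08e-07). The lowest control of each gene was well above the highest shAsns-1 library.

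Of the 8 enzymes that act on lanosterol and later sterols, 6 were called lower, Cyp51 and Msmo1 among them, and Tm7sf2 and Dhcr7 were not called. Sc5d, a sterol desaturase, had 92.2, 73.4, 80.5 and 63.6 CPM in tumor shAsns-1, against 214, 152, 140.2 and 169 CPM in tumor shRenilla (log2 fold change -1.13 ± 0.165, adjusted p = 9.64e-06). Hsd17b7, a ketosteroid reductase of the demethylation complex, had 30.4, 30.5, 27.2 and 27.2 CPM in tumor shAsns-1, against 60.2, 60.5, 53.1 and 56.4 CPM in tumor shRenilla (log2 fold change -0.998 ± 0.15, adjusted p = 9.52e-06). Ebp, which moves a double bond within the sterol ring, had 54.2, 34.3, 47.15 and 33.8 CPM in tumor shAsns-1, against 92.5, 71.3, 73.9 and 69.4 CPM in tumor shRenilla (log2 fold change -0.86 ± 0.155, adjusted p = 0.000124). Nsdhl, which acts beside Hsd17b7, also fell (log2 fold change -0.64 ± 0.14, adjusted p = 0.00119).

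Of the 8 enzymes from Acat2 to squalene synthase, 4 were called lower; no test of early against late steps was made. Fdps, the farnesyl diphosphate synthase, fell by 0.77 on the log2 scale (adjusted p = 0.00129). The squalene synthase gene Fdft1 fell by 0.53 (adjusted p = 0.0184), a call lost without tumor shAsns-1 A or D or tumor shRenilla A or B, with an adjusted p of 0.0525 to 0.0606. The calls of Acat2 (log2 fold change -0.27) and of the isomerase gene Idi1 (-0.67) were each lost when any of 7 libraries was left out: with an adjusted p of 0.0547 to 0.0978 for Acat2, where tumor shRenilla C was the exception, and of 0.0587 to 0.155 for Idi1, where the exception was tumor shRenilla C. The sterol enzymes not called were Hmgcs1, Mvk, Pmvk, Mvd, Lss, Tm7sf2 and Dhcr7, with log2 fold changes of -0.37 to -0.15. Exons of Fdft1, Fdps and Tm7sf2 share at least 10% of their bases with exons of another coding gene, and without a stated strand setting the reads of such neighbours cannot be told apart.

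Among the 10 fatty acid enzymes, 3 were called lower and 1 higher with shAsns-1 in tumor cells. Of all tested genes 17.7% were called lower and 16.2% higher there. Taken in both directions, the calls of these enzymes were near the 33.9% of all tested genes. Fads2, a desaturase of polyunsaturated fatty acids, was scarce, with 0.801, 0.694, 0.620 and 0.777 CPM in tumor shAsns-1, against 2.04, 2.57, 1.94 and 1.33 CPM in tumor shRenilla (log2 fold change -1.44 ± 0.29, adjusted p = 0.000365). Elovl6, an elongase of saturated fatty acids, had 114, 139.6, 119 and 125.5 CPM in tumor shAsns-1, against 206, 189.6, 215 and 188.5 CPM in tumor shRenilla (log2 fold change -0.68 ± 0.09, adjusted p = 2.19e-06). Its 4 shAsns-1 libraries lay close together and below every control. Elovl5, an elongase of polyunsaturated fatty acids, had 108, 114, 110.5 and 109 CPM in tumor shAsns-1, against 164, 139.6, 143 and 120.3 CPM in tumor shRenilla (log2 fold change -0.36 ± 0.14, adjusted p = 0.0431). That call was lost without any 1 of the tumor shAsns-1 libraries or of tumor shRenilla A, B or C, at an adjusted p of 0.0558 to 0.133. Acss2, which makes acetyl-CoA from acetate, had 12.6, 15.95, 12.1 and 12.35 CPM in tumor shAsns-1, against 8.68, 10.2, 10.75 and 10.8 CPM in tumor shRenilla (log2 fold change 0.39 ± 0.12, adjusted p = 0.0155). Its call was lost without tumor shAsns-1 B (adjusted p = 0.087) or tumor shRenilla A (adjusted p = 0.0536). The core synthesis enzymes were not called: the log2 fold change was -0.23 ± 0.12 for Acly, -0.18 ± 0.12 for the acetyl-CoA carboxylase gene Acaca and -0.095 ± 0.13 for the fatty acid synthase gene Fasn. Scd1, Scd2 and Fads1 were not called either (log2 fold changes -0.22 to 0.09). Scd1 and Scd2 are close paralogs, and how reads common to both were counted is not given in the sources used here.

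Of the 5 regulators, Srebf2 and Insig1 were called lower, where 17.7% of all tested genes were called lower. Srebf2, which encodes the SREBP mainly tied to the sterol branch, had 8.96, 9.98, 6.65 and 7.75 CPM in tumor shAsns-1, against 13.1, 14.5, 18.0 and 12.6 CPM in tumor shRenilla (log2 fold change -0.81 ± 0.16, adjusted p = 0.000275). Insig1 had 9.99, 19.7, 10.8 and 10.7 CPM in tumor shAsns-1, against 22.4, 18.6, 26.9 and 20.4 CPM in tumor shRenilla (log2 fold change -0.79 ± 0.19, adjusted p = 0.00178). Tumor shAsns-1 B lay within the control range of Insig1, while the other 3 lay below it (exact two-sided permutation p = 0.0571). Srebf1, Scap and the sterol transfer gene Stard4 were not called, with log2 fold changes of -0.095 to 0.16. Of the 17 calls in this comparison, those of Acat2, Idi1, Elovl5 and Acss2 also ended under another scaling, filter, tool, depth or offset. Epithelial marker genes moved with this comparison: 11 of 13 tested were called lower and 0 higher (median log2 fold change -2.39). The summed level of the 14 listed was 493.5 to 658 CPM in tumor shAsns-1 and 895 to 1077 CPM in tumor shRenilla. Krt8 did not move with them, with 206, 245, 189.5 and 184 CPM in tumor shAsns-1, against 165, 180.5, 184 and 166 CPM in tumor shRenilla. The part of the epithelial markers in the results on lipid genes was not tested.

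**Figure D3:**
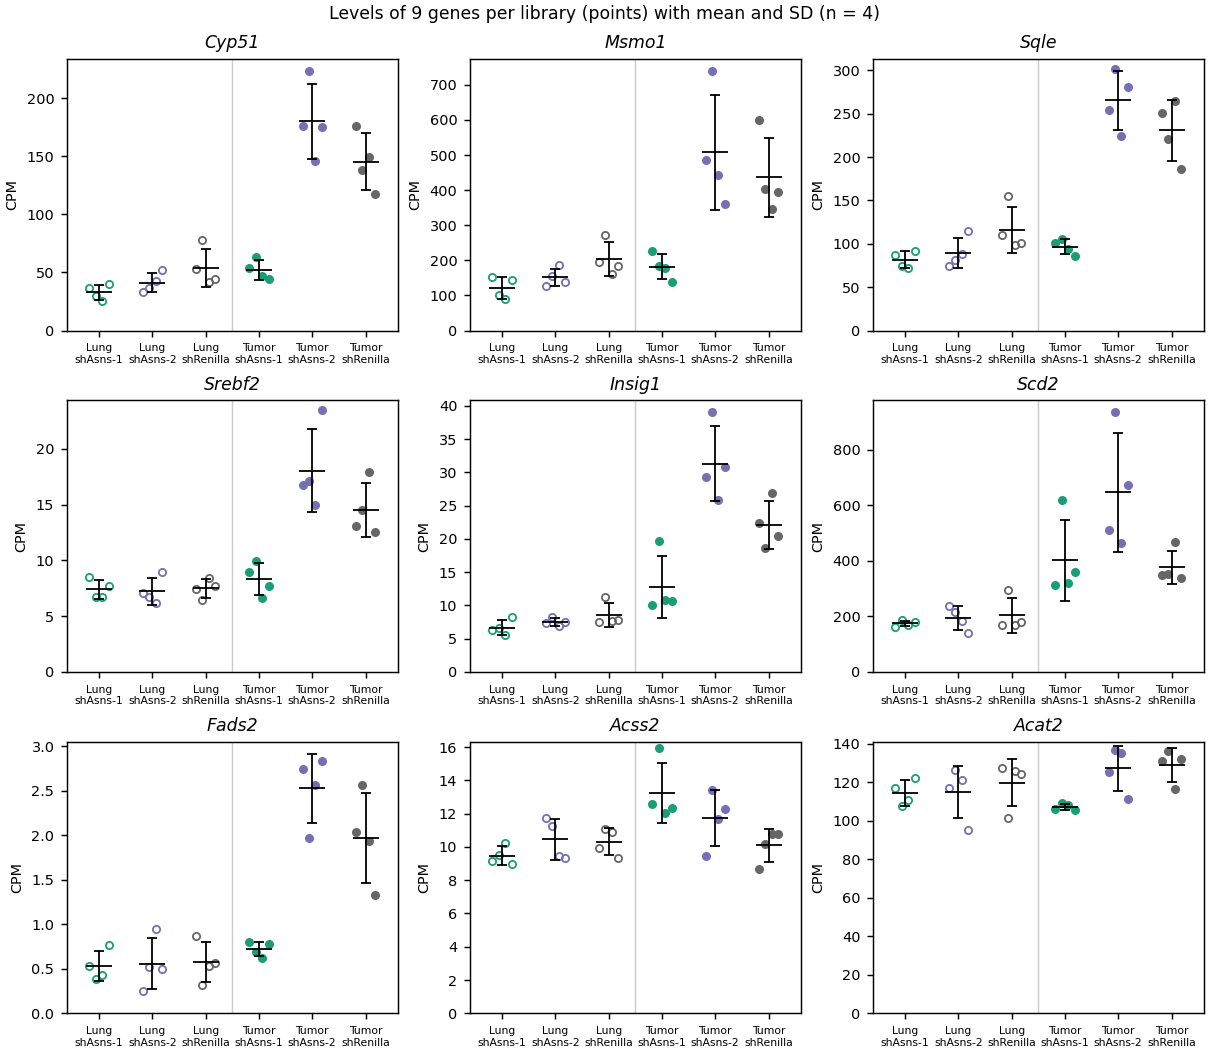
CPM of 9 of the genes in each library (points) with the mean and SD of 4 libraries per group, lung groups left of tumor groups. In Cyp51, Msmo1, Sqle and Srebf2 all tumor shAsns-1 points lie below all tumor shAsns-2 and tumor shRenilla points.

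In cells from primary tumors with shAsns-2, none of the 33 genes was called against shRenilla. edgeR called 0 and DESeq2 0, while 0.0634% of all tested genes were called (0.0396% higher and 0.0238% lower). An unadjusted p under 0.05 was found for 8 of the 33 and for 893 of all 12625 tested genes. The log2 fold change was positive for 30 of the 33, with a median of 0.21 against 0.01 over all tested genes. Fads1, a desaturase, had 41.2, 47.3, 38.2 and 45.9 CPM in tumor shAsns-2, against 32.7, 30.4, 38.2 and 30.3 CPM in tumor shRenilla (log2 fold change 0.39 ± 0.10, adjusted p = 0.194). Scd2 had 512, 937, 465 and 672 CPM in tumor shAsns-2, against 349, 353, 466 and 338 CPM in tumor shRenilla (log2 fold change 0.78 ± 0.22, adjusted p = 0.266). Insig1 had 29.3, 39.1, 25.8 and 30.8 CPM in tumor shAsns-2, against 22.4, 18.6, 26.9 and 20.4 CPM in tumor shRenilla (log2 fold change 0.50 ± 0.18, adjusted p = 0.531). In each of these genes the ranges of the groups overlapped. Tumor shAsns-2 A was the shallowest of all libraries.

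Set against each other in tumor cells, the hairpins differed at 24 of the 33 genes, all lower with shAsns-1 than with shAsns-2, where 27.1% of all tested genes were called (12.1% higher and 15% lower). They were 15 of the 18 sterol enzymes, 7 of the 10 fatty acid enzymes and 2 of the 5 regulators. The median log2 fold change was -0.68 over the 33 genes and -0.015 over all tested genes. The tumor shAsns-1 libraries are also those compared with shRenilla above, so the values of the 2 comparisons are not independent. Cyp51 had 53.6, 63.2, 47.1 and 44.25 CPM in tumor shAsns-1, against 176, 224, 146 and 175 CPM in tumor shAsns-2 (log2 fold change -1.79 ± 0.19, adjusted p = 8.71e-08). Msmo1 had 226, 185, 177 and 138 CPM in tumor shAsns-1, against 486, 741, 442 and 361 CPM in tumor shAsns-2 (log2 fold change -1.48 ± 0.22, adjusted p = 1.42e-05). Sqle had 101, 106, 94.3 and 86.2 CPM in tumor shAsns-1, against 254, 301, 224 and 281 CPM in tumor shAsns-2 (log2 fold change -1.455 ± 0.15, adjusted p = 6.57e-08). None of the 4 libraries of a group reached into the range of the other for these enzymes. Sc5d averaged 77.4 ± 12.0 CPM in tumor shAsns-1 and 176 ± 35.2 CPM in tumor shAsns-2 (SD, n = 4 each; log2 fold change -1.18 ± 0.17). Hsd17b7 averaged 28.8 ± 1.87 CPM and Fdps 34.3 ± 4.83 CPM in tumor shAsns-1, against 63.6 ± 10.6 CPM and 71.3 ± 19.1 CPM in tumor shAsns-2 (log2 fold changes -1.14 ± 0.15 and -1.06 ± 0.18). Mevalonate pathway genes that had not passed against shRenilla passed here: the log2 fold change was -0.78 ± 0.17 for the synthase gene Hmgcs1, -0.39 ± 0.125 for the kinase gene Pmvk and -0.61 ± 0.21 for the decarboxylase gene Mvd. Whether these genes differed more here than against shRenilla was not tested.

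Fads2 had 0.801, 0.694, 0.620 and 0.777 CPM in tumor shAsns-1, against 2.75, 1.975, 2.565 and 2.83 CPM in tumor shAsns-2 (log2 fold change -1.78 ± 0.29, adjusted p = 5.26e-05). Scd2 had 312, 618.5, 319 and 358 CPM in tumor shAsns-1, against 512, 937, 465 and 672 CPM in tumor shAsns-2 (log2 fold change -0.69 ± 0.22, adjusted p = 0.0238). Its ranges overlapped, since tumor shAsns-1 B exceeded 2 of the shAsns-2 libraries, and the call was lost without tumor shAsns-1 A, C or D or tumor shAsns-2 B (adjusted p 0.0692 to 0.127). Scd1 had 20.7, 33.3, 25.0 and 24.1 CPM in tumor shAsns-1, against 30.1, 58.6, 31.1 and 43.6 CPM in tumor shAsns-2 (log2 fold change -0.68 ± 0.18, adjusted p = 0.00737, and 0.0557 without tumor shAsns-2 B). Elovl6 had 114, 139.6, 119 and 125.5 CPM in tumor shAsns-1, against 197, 228, 184 and 187 CPM in tumor shAsns-2 (log2 fold change -0.67 ± 0.09, adjusted p = 4.23e-06). Every shAsns-1 library was below every shAsns-2 library for Fads2 and Elovl6. Insig1 had 9.99, 19.7, 10.8 and 10.7 CPM in tumor shAsns-1, against 29.3, 39.1, 25.8 and 30.8 CPM in tumor shAsns-2 (log2 fold change -1.295 ± 0.19, adjusted p = 1.08e-05). Srebf2 had 8.96, 9.98, 6.65 and 7.75 CPM in tumor shAsns-1, against 16.7, 17.1, 15.0 and 23.5 CPM in tumor shAsns-2 (log2 fold change -1.12 ± 0.16, adjusted p = 7.46e-06). Both regulators were separated without overlap. The calls of Acly, Elovl5, Idi1, Mvd and Pmvk each ended when any of 3 to 7 single libraries was left out, among them tumor shAsns-1 D in every case (adjusted p without that library 0.0581 for Acly, 0.0558 for Elovl5, 0.14 for Idi1, 0.0928 for Mvd and 0.108 for Pmvk). Acly, Idi1, Mvd, Pmvk, Scd2 and Tm7sf2 were also no longer called under at least 1 other scaling, filter, tool or depth. The epithelial markers moved here too, 11 of 13 lower and 0 higher; their part in these results was not tested.

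In cells from lung metastases no gene of the 33 was called between any pair of hairpin groups by edgeR. Shares of all tested genes given with these counts are those of edgeR. How many of all genes limma or DESeq2 called is not given here, so their counts of members stand without a background. Against lung shRenilla, 0 were called for shAsns-1, where 0.206% of all tested genes were called (0.0713% higher and 0.135% lower). An unadjusted p under 0.05 was found there for 8 of the 33 and for 1665 of all 12625 tested genes. DESeq2 called 2 of the 33 there, Cyp51 and Elovl6, each at an adjusted p of 0.0323, and limma with library weights called 5. Cyp51 had 36.4, 29.4, 25.8 and 40.0 CPM in lung shAsns-1, against 52.6, 77.7, 41.7 and 44.5 CPM in lung shRenilla (log2 fold change -0.72 ± 0.19, adjusted p = 0.131). Its 4 shAsns-1 libraries lay below the 4 controls with no overlap. Elovl6 had 106, 104, 98.15 and 106 CPM in lung shAsns-1, against 140.1, 136, 124 and 117 CPM in lung shRenilla (log2 fold change -0.32 ± 0.09, adjusted p = 0.189). Sqle had 87.3, 74.5, 72.55 and 92.1 CPM in lung shAsns-1, against 110.0, 155, 99.0 and 101 CPM in lung shRenilla (log2 fold change -0.51 ± 0.15, adjusted p = 0.212). Elovl6 and Sqle showed no overlap either. For shAsns-2 against shRenilla 0 of the 33 were called by edgeR, limma with library weights called 5 and DESeq2 0. There, edgeR called 0% of all tested genes. An unadjusted p under 0.05 was found for 5 of the 33 and for 1068 of all 12625 tested genes. Elovl5 had 106, 103, 129 and 133 CPM in lung shAsns-2, against 155, 225, 128 and 146 CPM in lung shRenilla (log2 fold change -0.48 ± 0.14, adjusted p = 0.33). Elovl6 had 103, 104, 105 and 106 CPM in lung shAsns-2 (log2 fold change -0.305 ± 0.09, adjusted p = 0.35), and Sqle had 74.4, 81.8, 87.95 and 114 CPM in lung shAsns-2 (log2 fold change -0.375 ± 0.15, adjusted p = 0.491), against the shRenilla values above. The groups overlapped for Elovl5 and Sqle and did not for Elovl6. Between shAsns-1 and shAsns-2, 0 were called by edgeR and 0 by DESeq2, where 0.261% of all tested genes were called (0.143% higher and 0.119% lower). An unadjusted p under 0.05 was found for 0 of the 33 and for 707 of all 12625 tested genes, and limma with library weights called 6. The smallest p-values belonged to Idi1, Hmgcs1 and Cyp51. Idi1 had 71.8, 55.65, 50.3 and 68.8 CPM in lung shAsns-1, against 85.6, 115, 93.8 and 49.0 CPM in lung shAsns-2 (log2 fold change -0.48 ± 0.26, adjusted p = 0.982). Hmgcs1 had 59.4, 71.3, 65.2 and 69.45 CPM in lung shAsns-1, against 88.2, 97.8, 76.85 and 61.8 CPM in lung shAsns-2 (log2 fold change -0.29 ± 0.17, adjusted p = 0.994). For Cyp51 the log2 fold change was -0.33 ± 0.185 (adjusted p = 0.994), with 33.25, 36.9, 42.8 and 52.1 CPM in lung shAsns-2. The groups overlapped in all 3. Without library B of lung shRenilla and library D of lung shAsns-2 the counts of called genes stayed at 0 in all 3 lung comparisons.

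Lung cells had lower levels of many of these genes than tumor cells of the same hairpin, with most calls for shAsns-2 and shRenilla. With shRenilla, 21 of the 33 genes were called lower in lung cells and 0 higher, where 21.8% of all tested genes were called (12% higher and 9.82% lower), and the count stayed at 21 without library B of lung shRenilla and library D of lung shAsns-2. The called genes were 12 of the 18 sterol enzymes, 7 of the 10 fatty acid enzymes and 2 of the 5 regulators, and 31 of the 33 log2 fold changes were negative (median -0.57, against 0.00 over all tested genes). Cyp51 had 52.6, 77.7, 41.7 and 44.5 CPM in lung shRenilla, against 176, 138, 149 and 118 CPM in tumor shRenilla (log2 fold change -1.425 ± 0.19, adjusted p = 2.21e-06). Msmo1 had 195, 272, 161 and 183 CPM in lung shRenilla, against 601, 404, 346.5 and 395 CPM in tumor shRenilla (log2 fold change -1.11 ± 0.22, adjusted p = 0.000462). Idi1, which interconverts the isoprenoid diphosphates, had 88.3, 142, 85.2 and 83.9 CPM in lung shRenilla, against 222, 189, 128.5 and 264 CPM in tumor shRenilla (log2 fold change -1.01 ± 0.26, adjusted p = 0.0064). In all 3 genes lung shRenilla B was the highest lung shRenilla library; it lay below every tumor library for Cyp51 and Msmo1, while for Idi1 it exceeded tumor shRenilla C. Sqle had 110.0, 155, 99.0 and 101 CPM in lung shRenilla, against 251.2, 221, 265 and 186 CPM in tumor shRenilla (log2 fold change -0.99 ± 0.15, adjusted p = 1.67e-05). Fdps had 33.1, 23.9, 33.3 and 35.6 CPM in lung shRenilla, against 61.3, 63.0, 47.4 and 62.5 CPM in tumor shRenilla (log2 fold change -0.90 ± 0.175, adjusted p = 0.000464). Hmgcs1, which makes the HMG-CoA that feeds mevalonate, had 71.4, 118, 73.0 and 72.2 CPM in lung shRenilla, against 146.5, 144.5, 154 and 154 CPM in tumor shRenilla (log2 fold change -0.84 ± 0.17, adjusted p = 0.000596). The groups of Sqle, Fdps and Hmgcs1 did not overlap. The call of Lss, the lanosterol synthase gene, was lost without tumor shRenilla C (adjusted p = 0.086), and that of Mvd without tumor shRenilla A or B or lung shRenilla A or B (adjusted p 0.0501 to 0.0861).

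Of the fatty acid enzymes, Fads2 had 0.871, 0.321, 0.5375 and 0.566 CPM in lung shRenilla, against 2.04, 2.57, 1.94 and 1.33 CPM in tumor shRenilla (log2 fold change -1.785 ± 0.30, adjusted p = 6.44e-05). Scd2 had 169.5, 295.5, 167.5 and 181 CPM in lung shRenilla, against 349, 353, 466 and 338 CPM in tumor shRenilla (log2 fold change -0.89 ± 0.22, adjusted p = 0.00502). Elovl6 had 140.1, 136, 124 and 117 CPM in lung shRenilla, against 206, 189.6, 215 and 188.5 CPM in tumor shRenilla (log2 fold change -0.63 ± 0.09, adjusted p = 9.64e-06). The groups did not overlap in these 3 genes. Scd1 had 17.6, 27.0, 17.49 and 18.4 CPM in lung shRenilla, against 26.9, 26.8, 37.0 and 29.2 CPM in tumor shRenilla (log2 fold change -0.57 ± 0.18, adjusted p = 0.0246), a call lost without tumor shRenilla C or lung shRenilla A, C or D (adjusted p 0.0574 to 0.0815). For Scd1 lung shRenilla B reached into the tumor range. Fasn and Acaca were called lower as well (log2 fold changes -0.48 ± 0.13 and -0.375 ± 0.12), Acaca no longer without tumor shRenilla B or C or lung shRenilla B (adjusted p 0.0658 to 0.0718). Insig1 had 7.46, 11.3, 7.67 and 7.81 CPM in lung shRenilla, against 22.4, 18.6, 26.9 and 20.4 CPM in tumor shRenilla (log2 fold change -1.365 ± 0.19, adjusted p = 5.56e-06). Srebf2 had 7.42, 6.415, 8.46 and 7.72 CPM in lung shRenilla, against 13.1, 14.5, 18.0 and 12.6 CPM in tumor shRenilla (log2 fold change -0.95 ± 0.16, adjusted p = 5.56e-05). Neither regulator had overlapping groups, while Srebf1, Scap and Stard4 were not called (log2 fold changes -0.21 to -0.13). Epithelial markers moved with the site: 10 of 13 were called lower in lung cells and 0 higher (median log2 fold change -1.91), with a summed level of 490.5 to 653.5 CPM in lung shRenilla and 895 to 1077 CPM in tumor shRenilla. The summed level of 9 fibroblast markers was 26.3 to 51.4 CPM in lung shRenilla and 17.48 to 21.1 CPM in tumor shRenilla. Over all 24 libraries the median was 24.7 CPM for Pdgfra and at most 0.773 CPM for each other fibroblast marker. In lung shRenilla Pdgfra and Dcn were called higher (log2 fold changes 1.05 ± 0.155 and 2.18 ± 0.56), while Postn was called lower (-4.40 ± 0.48). The part of the epithelial and fibroblast markers in the result was not tested.

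With shAsns-2, lung cells had lower levels of all 33 genes than tumor cells in log2 fold change, and 24 were called lower, 0 higher, where 20.9% of all tested genes were called (10.1% higher and 10.9% lower). Without library B of lung shRenilla and library D of lung shAsns-2 the count was 27. They were 13 sterol enzymes, 7 fatty acid enzymes and 4 regulators. The median was -0.87 over the 33 genes and 0.005 over all tested genes. Cyp51 had 33.25, 36.9, 42.8 and 52.1 CPM in lung shAsns-2, against 176, 224, 146 and 175 CPM in tumor shAsns-2 (log2 fold change -2.13 ± 0.19, adjusted p = 6.71e-09). Msmo1 had 128, 154, 185.5 and 139.5 CPM in lung shAsns-2, against 486, 741, 442 and 361 CPM in tumor shAsns-2 (log2 fold change -1.74 ± 0.22, adjusted p = 1.77e-06). Sqle had 74.4, 81.8, 87.95 and 114 CPM in lung shAsns-2, against 254, 301, 224 and 281 CPM in tumor shAsns-2 (log2 fold change -1.57 ± 0.15, adjusted p = 2.14e-08). Lung shAsns-2 D was the highest lung shAsns-2 library of Cyp51 and Sqle and still lay below all tumor shAsns-2 libraries. Hmgcs1 had 88.2, 97.8, 76.85 and 61.8 CPM in lung shAsns-2, against 182, 268, 170.4 and 176 CPM in tumor shAsns-2 (log2 fold change -1.295 ± 0.17, adjusted p = 3.08e-06). Idi1 had 85.6, 115, 93.8 and 49.0 CPM in lung shAsns-2, against 201, 327, 183 and 108 CPM in tumor shAsns-2 (log2 fold change -1.26 ± 0.27, adjusted p = 0.00113). Hsd17b7 averaged 29.95 ± 4.43 CPM in lung shAsns-2 and 63.6 ± 10.6 CPM in tumor shAsns-2 (SD, n = 4 each; log2 fold change -1.09 ± 0.15). Apart from Idi1, for which lung shAsns-2 B exceeded tumor shAsns-2 D, these enzymes were separated between the sites without overlap.

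Fads2 had 0.253, 0.526, 0.944 and 0.4975 CPM in lung shAsns-2, against 2.75, 1.975, 2.565 and 2.83 CPM in tumor shAsns-2 (log2 fold change -2.16 ± 0.30, adjusted p = 6.59e-06). Scd2 had 237.5, 217, 185 and 139 CPM in lung shAsns-2, against 512, 937, 465 and 672 CPM in tumor shAsns-2 (log2 fold change -1.73 ± 0.23, adjusted p = 3.36e-06). Scd1 had 20.1, 17.65, 17.8 and 17.9 CPM in lung shAsns-2, against 30.1, 58.6, 31.1 and 43.6 CPM in tumor shAsns-2 (log2 fold change -1.16 ± 0.185, adjusted p = 4.43e-05). All 4 desaturase genes were thus lower, since Fads1 had 21.9, 20.25, 20.8 and 23.8 CPM in lung shAsns-2, against 41.2, 47.3, 38.2 and 45.9 CPM in tumor shAsns-2 (log2 fold change -0.99 ± 0.105, adjusted p = 1.05e-07). Insig1 had 7.38, 8.33, 6.87 and 7.50 CPM in lung shAsns-2, against 29.3, 39.1, 25.8 and 30.8 CPM in tumor shAsns-2 (log2 fold change -2.06 ± 0.19, adjusted p = 1.36e-08). Srebf2 had 7.125, 6.69, 6.22 and 8.99 CPM in lung shAsns-2, against 16.7, 17.1, 15.0 and 23.5 CPM in tumor shAsns-2 (log2 fold change -1.32 ± 0.16, adjusted p = 8.53e-07). Among the regulators the groups of Insig1 and Srebf2 lay far apart. Srebf1 was called lower at -0.665 ± 0.195 (adjusted p = 0.0159); tumor shAsns-2 D held 33.2 CPM of it, and the call was lost without that library (adjusted p = 0.157), without lung shAsns-2 A or without lung shAsns-2 C. The calls of Mvd and Stard4 were lost without any of 7 and 6 libraries, tumor shAsns-2 B and C and lung shAsns-2 A and C among them for both. Of the epithelial markers 10 of 13 were called lower in lung shAsns-2 (median log2 fold change -2.37), and their part in these results was not tested.

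With shAsns-1 fewer genes passed: 8 of the 33 were called lower in lung cells and 0 higher, where 8.55% of all tested genes were called (6% higher and 2.54% lower). That background changed when offsets for GC content and gene length were used: 13 of the 33 were then called lower, and over all tested genes 708 were called higher and 1169 lower (14.9% in all), against 758 and 321 with no offsets. Again with no offsets, the count was 10 without library B of lung shRenilla and library D of lung shAsns-2. The median log2 fold change was -0.20, against 0.03 over all tested genes, and 25 of the 33 were negative. Idi1 had 71.8, 55.65, 50.3 and 68.8 CPM in lung shAsns-1, against 144, 137, 124 and 99.9 CPM in tumor shAsns-1 (log2 fold change -1.035 ± 0.265, adjusted p = 0.0157). Hmgcs1 had 59.4, 71.3, 65.2 and 69.45 CPM in lung shAsns-1, against 104, 152, 103 and 105 CPM in tumor shAsns-1 (log2 fold change -0.81 ± 0.17, adjusted p = 0.00386). Cyp51 had 36.4, 29.4, 25.8 and 40.0 CPM in lung shAsns-1, against 53.6, 63.2, 47.1 and 44.25 CPM in tumor shAsns-1 (log2 fold change -0.66 ± 0.19, adjusted p = 0.0258). The lung libraries of all 3 enzymes lay below the tumor libraries. Scd2 had 163, 185.5, 170.3 and 181 CPM in lung shAsns-1, against 312, 618.5, 319 and 358 CPM in tumor shAsns-1 (log2 fold change -1.20 ± 0.23, adjusted p = 0.0015). Acss2 had 9.18, 9.535, 10.25 and 8.96 CPM in lung shAsns-1, against 12.6, 15.95, 12.1 and 12.35 CPM in tumor shAsns-1 (log2 fold change -0.48 ± 0.12, adjusted p = 0.0157). Fads1 had 23.8, 23.0, 21.2 and 23.2 CPM in lung shAsns-1, against 28.0, 35.9, 26.2 and 30.01 CPM in tumor shAsns-1 (log2 fold change -0.40 ± 0.10, adjusted p = 0.0181). These 3 genes were separated between the sites. Insig1 had 6.28, 6.62, 5.54 and 8.22 CPM in lung shAsns-1, against 9.99, 19.7, 10.8 and 10.7 CPM in tumor shAsns-1 (log2 fold change -0.94 ± 0.19, adjusted p = 0.00323). Stard4, whose product carries sterols between membranes, had 8.53, 9.50, 8.61 and 7.49 CPM in lung shAsns-1, against 11.7, 13.1, 11.4 and 11.35 CPM in tumor shAsns-1 (log2 fold change -0.48 ± 0.15, adjusted p = 0.0479). The Stard4 call was lost without any 1 of the 8 libraries (adjusted p 0.0506 to 0.161). Cyp51 was no longer called without tumor shAsns-1 A or B or lung shAsns-1 B or C (adjusted p 0.0558 to 0.101), Idi1 without tumor shAsns-1 A or lung shAsns-1 C (0.0522 to 0.0552), Acss2 without tumor shAsns-1 B or lung shAsns-1 D (0.0597 to 0.0743), and Fads1 without tumor shAsns-1 B or lung shAsns-1 C (0.0612 to 0.0905). Hmgcs1, Scd2 and Insig1 were called whichever library was left out, and under every other scaling, filter, tool, depth and offset tried except a test against a 1.5-fold minimum. The summed level of fibroblast markers was 34.3 to 70.2 CPM in lung shAsns-1 and 24.0 to 32.4 CPM in tumor shAsns-1. Among them Col3a1, Dcn and Col1a2 were called higher in lung shAsns-1 (log2 fold changes 6.59 ± 1.035, 2.54 ± 0.48 and 2.47 ± 0.59). Of the epithelial markers 5 of 13 were called lower and 0 higher (median log2 fold change -0.24), with a summed level of 463 to 522 CPM in lung shAsns-1 and 493.5 to 658 CPM in tumor shAsns-1. Of the macrophage and leukocyte markers 2 of 4 tested were called higher, with a summed level of 17.7 to 27.6 CPM in lung shAsns-1 and 11.1 to 15.0 CPM in tumor shAsns-1. Their Lyz2 was called higher in lung cells with shAsns-1, shAsns-2 and shRenilla (log2 fold changes 3.53 ± 0.45, 2.29 ± 0.535 and 2.23 ± 0.485). The part of these markers in the results was not tested.

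**Figure D4:**
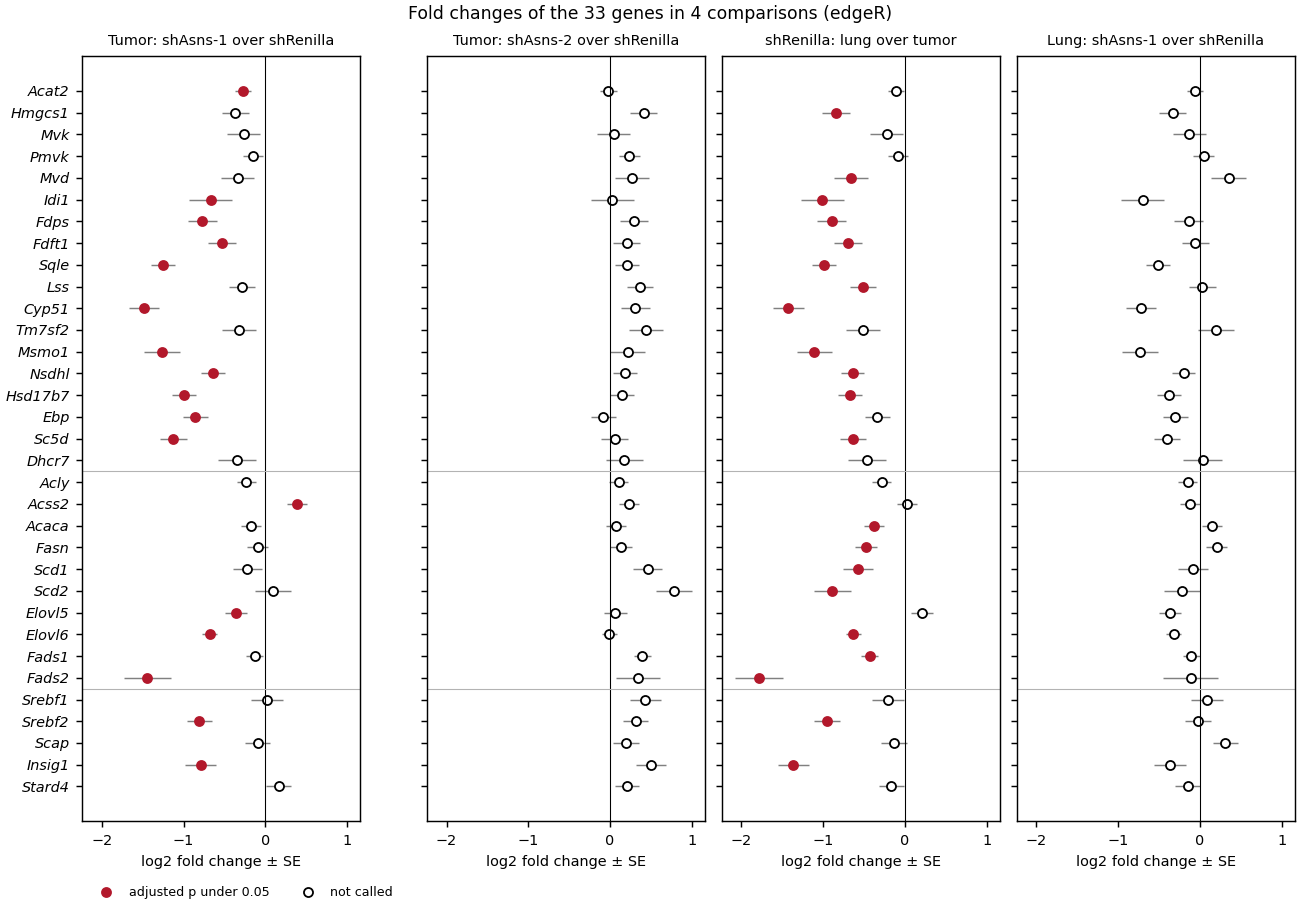
log2 fold change of each of the 33 genes with its standard error in 4 comparisons; filled red points have an adjusted p under 0.05. Points of the sterol enzymes lie left of 0 in tumor shAsns-1 against tumor shRenilla and in lung against tumor shRenilla, and no point is filled in lung shAsns-1 against lung shRenilla.

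The differences between hairpin groups as labelled, called effects below, were tested for a difference between the sites. This was the effect in tumor cells minus the effect in lung cells. For shAsns-1 against shRenilla 7 of the 33 genes differed, 6 with the more negative effect in tumor cells and 1, Acss2, with the more positive, where 14.2% of all tested genes were called (7.27% higher and 6.96% lower). Sqle had an effect of -1.25 in tumor cells and -0.51 in lung cells on the log2 scale, a difference of -0.74 ± 0.21 (adjusted p = 0.0176). Srebf2 had -0.81 in tumor cells and -0.02 in lung cells, a difference of -0.79 ± 0.22 (adjusted p = 0.0184). The differences of Sqle and Srebf2 were called whichever library was left out. Cyp51 differed by -0.76 ± 0.26, Hsd17b7 by -0.62 ± 0.21, Sc5d by -0.72 ± 0.23, Fads2 by -1.33 ± 0.45 and Acss2 by 0.51 ± 0.17 on the log2 scale, with adjusted p-values of 0.0367 to 0.0491. Each of these 5 calls was lost when any of 7 to 14 single libraries was left out, tumor shAsns-1 C among them in every case (adjusted p without it 0.0901 for Cyp51, 0.0757 for Hsd17b7, 0.0516 for Sc5d, 0.0871 for Fads2 and 0.0508 for Acss2). For shAsns-1 against shAsns-2, 14 of the 33 differed, all with the more negative effect in tumor cells, where 11.6% of all tested genes were called (4.74% higher and 6.89% lower). They were Fdps, Sqle, Lss, Cyp51, Msmo1, Nsdhl, Hsd17b7, Ebp, Sc5d, Elovl6, Fads1, Fads2, Srebf2 and Insig1, with differences of -1.71 to -0.60. Sqle had an effect of -1.455 in tumor cells and -0.135 in lung cells, a difference of -1.32 ± 0.21 (adjusted p = 0.00014). Fads2 was no longer called without lung shAsns-1 D (adjusted p = 0.0581), and Fdps, Lss and Nsdhl were lost without any of 7 to 11 single libraries, tumor shAsns-1 A and D among them. For shAsns-2 against shRenilla 0 of the 33 were called by edgeR and 0 by DESeq2, where 0% of all tested genes were called. An unadjusted p under 0.05 was found for 9 of the 33 and for 599 of all 12625 tested genes. The smallest p there was that of Fads1, with a difference of 0.565 ± 0.15 (adjusted p = 0.795). The differences between sites are made from the comparisons above and share all of their libraries.

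Other genes of lipid handling were read from lists of neighbouring steps. Abca1 and Abcg1 encode sterol exporters that LXR receptors induce when sterols are plentiful, and both moved opposite to the synthesis genes. Mylip, of the same list, did not move with them. It averaged 8.31 CPM in tumor shAsns-1, 8.49 CPM in tumor shRenilla and 7.39 CPM in lung shRenilla. The part of sterol levels in these results was not tested. Abca1 had 1.49, 1.00, 1.86 and 1.75 CPM in tumor shAsns-1, against 0.853, 0.143, 0.567 and 0.245 CPM in tumor shRenilla (log2 fold change 1.76 ± 0.36, adjusted p = 0.000466). Abcg1 had 3.585, 2.00, 2.565 and 2.44 CPM in tumor shAsns-1, against 0.816, 0.820, 0.6675 and 1.23 CPM in tumor shRenilla (log2 fold change 1.58 ± 0.24, adjusted p = 1.73e-05). Both are scarce, and for both every shAsns-1 library exceeded every control. In lung shRenilla Abca1 had 1.67, 4.11, 1.83 and 2.71 CPM (log2 fold change 2.51 ± 0.35, adjusted p = 5.61e-06) and Abcg1 2.95, 1.925, 2.94 and 3.55 CPM (log2 fold change 1.68 ± 0.24, adjusted p = 9.93e-06), against the same tumor shRenilla libraries. With shAsns-2 they were higher in lung than in tumor cells as well (log2 fold changes 1.99 ± 0.39 and 1.20 ± 0.25), and with shAsns-1 neither was called (0.61 ± 0.30 and -0.05 ± 0.22). Their site differences of shAsns-1 against shRenilla were 1.90 ± 0.46 (adjusted p = 0.00671) and 1.73 ± 0.33 (adjusted p = 0.00071), and these site differences were no longer called with all libraries thinned to the depth of the smallest (adjusted p 0.106 and 0.195).

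**Figure D5:**
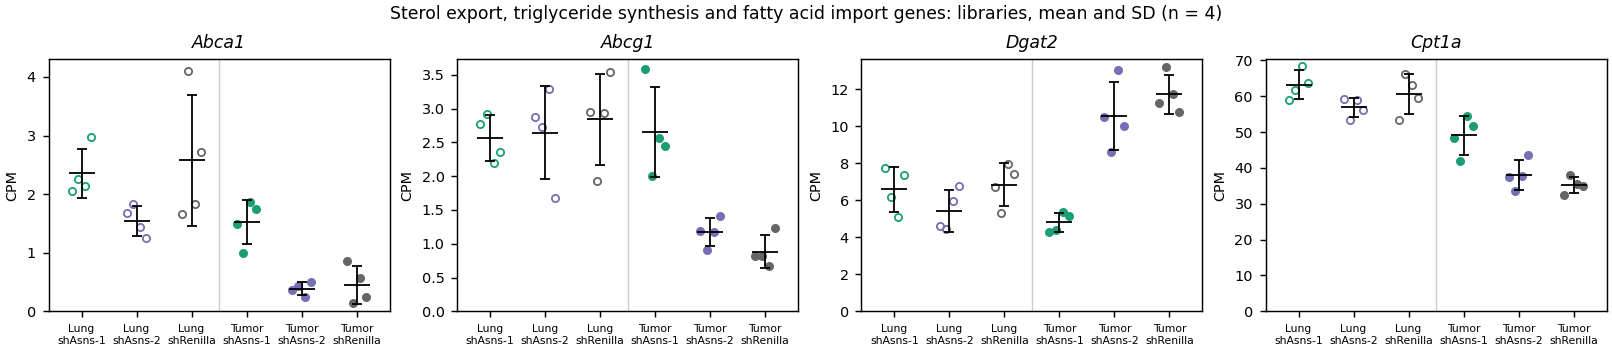
CPM of the sterol exporter genes Abca1 and Abcg1, of Dgat2 (triglyceride synthesis) and of Cpt1a (fatty acid entry into mitochondria) in each library (points) with the mean and SD of 4, lung groups left of tumor groups. Abcg1 averages 2.65 ± 0.669 CPM in tumor shAsns-1 and 0.882 ± 0.240 CPM in tumor shRenilla, and Dgat2 4.805 ± 0.531 CPM and 11.7 ± 1.05 CPM in the same groups.

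The counts of the next lists in tumor shAsns-1 against tumor shRenilla stand against 16.2% of all tested genes called higher and 17.7% called lower. There, 2 of 10 tested genes of sterol efflux, LXR and storage were called higher and 3 lower, the LXR gene Nr1h3 among those lower (log2 fold change -0.71 ± 0.27), a call lost without any of 5 libraries, tumor shAsns-1 C and D and tumor shRenilla A, B and C (adjusted p 0.0687 to 0.127). Of 12 other genes that control SREBP, 0 were higher and 2 lower: Erlin1, whose product takes part in sterol-driven degradation in the endoplasmic reticulum (-0.50 ± 0.12), and Nploc4 (-0.26 ± 0.095), whose call was lost without tumor shAsns-1 A, C or D or tumor shRenilla B or C (adjusted p 0.0728 to 0.128). The isoprenoid branch leaves the sterol pathway at farnesyl diphosphate, and 0 of its 13 tested genes were higher and 4 lower, with log2 fold changes of -0.87 ± 0.16 for the prenyl protein protease gene Zmpste24, -0.66 ± 0.16 for the transferase gene Rabggta and -0.44 ± 0.10 for Pdss2 of coenzyme Q synthesis. Among 20 other genes of fatty acid and lipid synthesis, 3 were higher and 9 lower. Dgat2, which completes triglycerides, had 4.31, 4.39, 5.355 and 5.16 CPM in tumor shAsns-1, against 11.2, 13.2, 11.75 and 10.8 CPM in tumor shRenilla (log2 fold change -1.28 ± 0.165, adjusted p = 1.33e-06). Gpam, which starts glycerolipid synthesis, and Hsd17b12, a reductase of fatty acid elongation, fell too (log2 fold changes -1.15 ± 0.29 and -0.91 ± 0.155). Of 16 genes of fatty acid oxidation 3 were higher, a share (18.8%) near that of all tested genes, and 0 lower. Cpt1a, which loads fatty acids onto carnitine, had 48.3, 41.9, 54.45 and 51.7 CPM in tumor shAsns-1, against 32.3, 37.9, 35.5 and 34.96 CPM in tumor shRenilla (log2 fold change 0.48 ± 0.10, adjusted p = 0.000466). The other oxidation genes called were Acadl (0.39 ± 0.10) and Decr1 (0.55 ± 0.17), Decr1 no longer without tumor shAsns-1 C or tumor shRenilla B or C (adjusted p 0.0502 to 0.0629). In tumor shAsns-2 against tumor shRenilla and in each Asns hairpin against shRenilla in lung cells, 0 genes of these 5 lists were called.

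Between the sites, genes called higher in lung cells made up 6% of all tested genes with shAsns-1, 10.1% with shAsns-2 and 12% with shRenilla, and those called lower 2.54%, 10.9% and 9.82%. Of the 16 oxidation genes, 2 were higher with shAsns-1 (12.5%), 8 with shAsns-2 (50%) and 7 with shRenilla (43.8%), and 0 were lower with any of them. Cpt1a had 53.3, 66.2, 63.2 and 59.6 CPM in lung shRenilla, against 32.3, 37.9, 35.5 and 34.96 CPM in tumor shRenilla (log2 fold change 0.78 ± 0.10, adjusted p = 1.19e-06). Slc25a20, the carnitine carrier, was higher in lung cells with shAsns-1, shAsns-2 and shRenilla (log2 fold changes 0.71 ± 0.12, 0.56 ± 0.12 and 0.53 ± 0.12). Of sterol efflux, LXR and storage, 2 of 10 were higher in lung shAsns-2 and 2 in lung shRenilla, Abca1 and Abcg1, and 1 in lung shAsns-1, the lysosomal lipase gene Lipa (0.47 ± 0.13, lost without tumor shAsns-1 A, B or D or lung shAsns-1 A or D); 0 were lower. Cpt1a was called in lung shAsns-1 at 0.365 ± 0.10, lost without tumor shAsns-1 A or B or lung shAsns-1 C or D (adjusted p 0.0536 to 0.1). Other lipid synthesis genes gave 2 higher and 2 lower of 20 in lung shRenilla, 1 higher and 6 lower with shAsns-2, and 0 either way with shAsns-1. Dgat2 was lower in lung shRenilla (-0.78 ± 0.16) and lung shAsns-2 (-0.96 ± 0.17), and Mid1ip1, an activator of acetyl-CoA carboxylase, was lower in lung shRenilla (-0.75 ± 0.155). The isoprenoid branch had 0 higher and 3 lower in lung shRenilla, 0 higher and 5 lower in lung shAsns-2 and 0 either way in lung shAsns-1; in shRenilla the calls of Zmpste24 and Rabggta were each lost without any of 4 or more single libraries, lung shRenilla C among them. Among the SREBP control genes, 1 was higher and 6 were lower in lung shAsns-2, Erlin2 and Erlin1 among those lower (log2 fold changes -0.54 ± 0.12 and -0.49 ± 0.12). With shRenilla 0 of these 12 were called in either direction and with shAsns-1 1 was lower, Fbxw7 (-0.34 ± 0.10), lost without tumor shAsns-1 B or D or lung shAsns-1 A or D (adjusted p 0.0759 to 0.1). The lists share a site comparison with the genes above, and no test of the lists as sets was made.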

How the data were processed

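RNA of 24 libraries (6 groups of 4) was compared. The deposited table holds raw counts for each gene symbol, made by the authors with Bowtie2, HTSeq and the build mm10, per the submitters' processing notes, which give no versions; annotation, strand setting and filters are not given in the sources used here. Libraries were made from total RNA (Trizol) with the Nugen Ovation RNAseq V2 kit, per the labels' protocols. No pair of libraries agreed within sampling noise (lowest chi-square per degree of freedom 4.961 within and 5.949 between groups).

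The test was that of edgeR 4.0.16 (R 4.3.3): a robust quasi-likelihood fit with 1 mean for each of the 6 groups, TMM scaling and filterByExpr, which kept 12625 genes. Adjusted p-values are Benjamini-Hochberg over these genes, called under 0.05. The standard error is the absolute log2 fold change divided by the square root of F. CPM and log2 CPM (prior count 2) were computed from the counts, and exact permutation p-values from the 35 splits of 4 against 4. The biological coefficient of variation was 14.9%. Lengths and overlaps came from GENCODE M21 and promoters from RefSeq. Alternatives used DESeq2 1.42.0 and limma 3.58.1; the fit was tested on simulated data.

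The members and lists were chosen with earlier results of these data known. Values in every library are given, in each comparison, for up to 6 sterol enzymes, 4 fatty acid enzymes and 2 regulators with the largest absolute change among those called, or, with under 3 called, for the 3 with the smallest p; for a few of these the mean and SD stand in place of the single values. Of other lists, up to 3 called genes each are named; Krt8 was chosen after its values were seen.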

Additional observations from a re-analysis of the deposited data

Results flagged for a closer look

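Of 198 combinations of gene and group, 21 (10.6%) held a library that stood apart from the other 3. Its gap to the nearest of them was above Dixon's 95% critical share of the group's range. The nominal rate of about 1 in 20 holds for independent normal values. These combinations share libraries and were taken as CPM, so no excess can be read from the 10.6%. In 17 of the 21 the library was the highest and in 4 the lowest. Lung shRenilla B accounted for 8. It was high for Hmgcs1 (117.8 CPM), Idi1 (141.6 CPM), Hsd17b7 (52.22 CPM), Acly (292.8 CPM), Scd1 (26.98 CPM), Scd2 (295.5 CPM) and Insig1 (11.32 CPM), and low for Acat2 (101.4 CPM). Tumor shAsns-1 B was high for Hmgcs1 (151.9 CPM), Mvd (4.624 CPM), Acss2 (15.95 CPM), Scd2 (618.5 CPM) and Insig1 (19.73 CPM). Tumor shRenilla C was high for Scd2 (466.1 CPM) and low for Fdps (47.36 CPM) and Fdft1 (41.58 CPM). Single values stood out in tumor shAsns-1 D for Pmvk (16.44 CPM, low), in tumor shAsns-2 B for Hmgcs1 (268.4 CPM), in tumor shAsns-2 D for Srebf1 (33.24 CPM), in lung shAsns-2 A for Scd1 (20.11 CPM) and in lung shAsns-2 D for Scap (30.91 CPM).

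The effect of shAsns-1 against shRenilla, taken between libraries as labelled, differed between the sites at 7 genes. The difference, tumor effect minus lung effect on the log2 scale, was -0.744 for Sqle, -0.763 for Cyp51, -0.62 for Hsd17b7, -0.723 for Sc5d, -1.331 for Fads2, -0.788 for Srebf2 and 0.509 for Acss2. For shAsns-1 against shAsns-2 it was -0.789 for Fdps, -1.32 for Sqle, -0.748 for Lss, -1.465 for Cyp51, -1.169 for Msmo1, -0.67 for Nsdhl, -1.033 for Hsd17b7, -0.861 for Ebp, -1.083 for Sc5d, -0.66 for Elovl6, -0.596 for Fads1, -1.706 for Fads2, -1.152 for Srebf2 and -1.117 for Insig1.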

How the results depend on the processing

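Over all alternatives 0 of the 115 calls of a member changed direction, and 81 kept the call under every alternative other than a test against a 1.5-fold minimum. That test called 6 members in tumor shAsns-1 against tumor shRenilla, 9 in tumor shAsns-1 against tumor shAsns-2, 0 in lung against tumor shAsns-1, 13 in lung against tumor shAsns-2, 4 in lung against tumor shRenilla, 0 for the site difference of shAsns-1 against shRenilla and 2 for that of shAsns-1 against shAsns-2. In lung against tumor shAsns-1 (8 members), limma with library weights called 14, GC content and length offsets 13 and thinned counts 5. For the site difference of shAsns-1 against shRenilla (7), DESeq2 size factors gave 4, no low-count filter 4 and limma 13. In lung cells limma called 5 for shAsns-1 and 5 for shAsns-2 against shRenilla and 6 between them, and DESeq2 2 for shAsns-1. Shares of all tested genes called under the alternatives are not given here, apart from those with GC content and length offsets. In windows of 150 bases the share of promoters was 0 for TCACNCCAC, against 0.507% of promoters of tested genes, and 46.9% for GGGCGG, against 52.6%.

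Leaving out 1 library gave 12 to 16 members in tumor shAsns-1 against tumor shRenilla, 18 to 23 against tumor shAsns-2, 4 to 7 in lung against tumor shAsns-1 (4 without tumor shAsns-1 B or lung shAsns-1 C, 5 without tumor shAsns-1 A), 21 to 25 with shAsns-2 and 18 to 22 with shRenilla. The site difference gave 2 to 8 for shAsns-1 against shRenilla (2 without tumor shAsns-1 C or D, lung shAsns-1 A or D, or lung shRenilla C; 3 without tumor shRenilla A or B; 4 without tumor shRenilla C or lung shRenilla D) and 10 to 16 against shAsns-2. In the other comparisons it was 0 throughout. The cause was not tested.

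The letters A to D gave no clear pairing: 15 of 60 same-letter pairs correlated above 0.1, and 10 of 24 libraries correlated best with their own letter. Correlations of same-letter pairs ran from -0.415 to 0.465, with a median of 0.012, against 0.001 for different letters. Whether a letter marks a shared mouse or batch cannot be decided from these values. With the letter as a replicate block 18, 24, 8, 23, 22, 7 and 14 members were called in the 7 comparisons with calls, in the order used above for the fold minimum. For all genes, GC content and length offsets changed the split of higher and lower calls to 708 and 1169 in lung against tumor shAsns-1, where it was 758 and 321. Depth limits the scarce genes: Fads2 and Tm7sf2 had at most 2.83 CPM and Abca1 and Abcg1 at most 4.11 CPM, and calls of each ended in some comparison with thinned counts.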
